A study of Mus musculus with 16 samples.

Results

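Intestinal epithelial cells carry and secrete a small set of molecules that attract, hold and feed the lymphocytes living between them, the intraepithelial lymphocytes. A set of 9 genes linked to these signals was followed here, chosen by name for their roles, with earlier results of these data known. They are the butyrophilin-like genes Btnl1, Btnl2, Btnl4 and Btnl6, the chemokine gene Ccl25, the cytokine gene Il15 and its receptor chain Il15ra, the adhesion gene Cdh1 and the transcription factor gene Ahr. These 9 genes, of 55359 in the count table, all passed the filter on low counts in every comparison.

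Duodenum and ileum were taken 5 weeks after tamoxifen from adult male mice of the C57BL/6N strain, which ate a high fat diet, and their total RNA was sequenced after ribosomal RNA had been depleted. Mutant mice carried floxed Neurog3 alleles (Neurog3 f/f) and Villin-CreERT2, a recombinase that tamoxifen activates and that the Villin promoter drives throughout the gut epithelium. Control mice carried Neurog3 f/f without the recombinase, so loss of Neurog3 and presence of the recombinase cannot be told apart. Each genotype had 4 mice, written C133, C134, C151 and C154 for controls and M136, M167, M168 and M177 for mutants, and each mouse gave 1 library per tissue. Neurog3 is the transcription factor that starts enteroendocrine cell differentiation, and the design asks how these tissues differ in its absence. Levels are in CPM, counts scaled to 1 M per library, and a log2 fold change compares mutant with control mice unless another contrast is named. The words fell and rose are kept for genes that passed edgeR's quasi-likelihood test at a p under 0.05 after Benjamini-Hochberg adjustment over all genes tested. SE stands for the standard error of a log2 fold change.

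Butyrophilin-like proteins are membrane proteins of the enterocyte, and in the mouse Btnl1 and Btnl6 pair to support gamma delta T cells that carry the V gamma 7 chain. CCL25 is the small-intestinal chemokine read by CCR9, IL-15 is handed by its receptor chain IL-15R alpha to lymphocytes that carry the beta chain encoded by Il2rb, and E-cadherin, the product of Cdh1, is bound by the integrin made from Itgae and Itgb7. The aryl hydrocarbon receptor, encoded by Ahr, senses dietary and microbial ligands, and intraepithelial lymphocytes decline in its absence.

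Libraries held 40.9 to 67.2 M counts. Neurog3 had 549 counts over the control duodenum libraries and 201 over those of control ileum, against 1 count in each set of mutant libraries. Gata4, a factor of the proximal gut chosen here after its values were seen, averaged 216 CPM in control duodenum and 24.7 CPM in control ileum, and all 14 epithelium markers were detected in all 4 groups. Some libraries stood apart. A list of 12 exocrine pancreas genes took 15 and 14.8% of counts in the duodenum of M167 and M177, against at most 3.5% in the other duodenum libraries, and the summed epithelium markers were lowest in the same libraries, at 12400 and 13700 CPM against 16900 to 19000 CPM. A list of 9 B cell follicle genes was high in C134 and C154, with sums of 59.1 and 101 CPM (duodenum) and of 176 and 201 CPM (ileum), against at most 27.3 CPM elsewhere. Fits without each of these pairs of mice left 2 libraries in a group. Calls lost in these fits are given below as counts, and as values for some of the named genes.

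In the ileum, 5 of the 9 genes fell in mutant mice (Btnl1, Btnl2, Btnl6, Il15 and Il15ra) and none rose. In the duodenum 1 fell, Btnl2. Of 18310 genes tested in the ileum, 33.6% passed, 14.6% by falling and 19.0% by rising. Of 17611 tested in the duodenum, 8.55% passed, 5.11% by falling and 3.44% by rising. The median log2 fold change of the 9 was -0.69 in the ileum and -0.35 in the duodenum, against -0.03 and 0.02 over all tested genes. Cdh1 was the only one of the 9 with a positive value, 0.16 in the ileum and 0.04 in the duodenum, and it did not pass the test in either. The same 5 passed in the ileum without C134 and C154 and without M167 and M177, whereas Btnl2 in the duodenum did not pass in either case. M167 and M177 had the lowest duodenal values of Btnl1, Btnl2, Btnl4, Btnl6, Ccl25, Il15 and Ahr. Over 17 other settings the duodenal log2 fold change ranged from -0.48 to -0.11 for Btnl4 and from -0.60 to -0.13 for Btnl6. It ranged from -0.40 to -0.17 for Ccl25, -0.79 to -0.17 for Il15 and -0.36 to -0.16 for Ahr. The part of the pancreatic transcripts in these values was not tested.

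**Figure D1:**
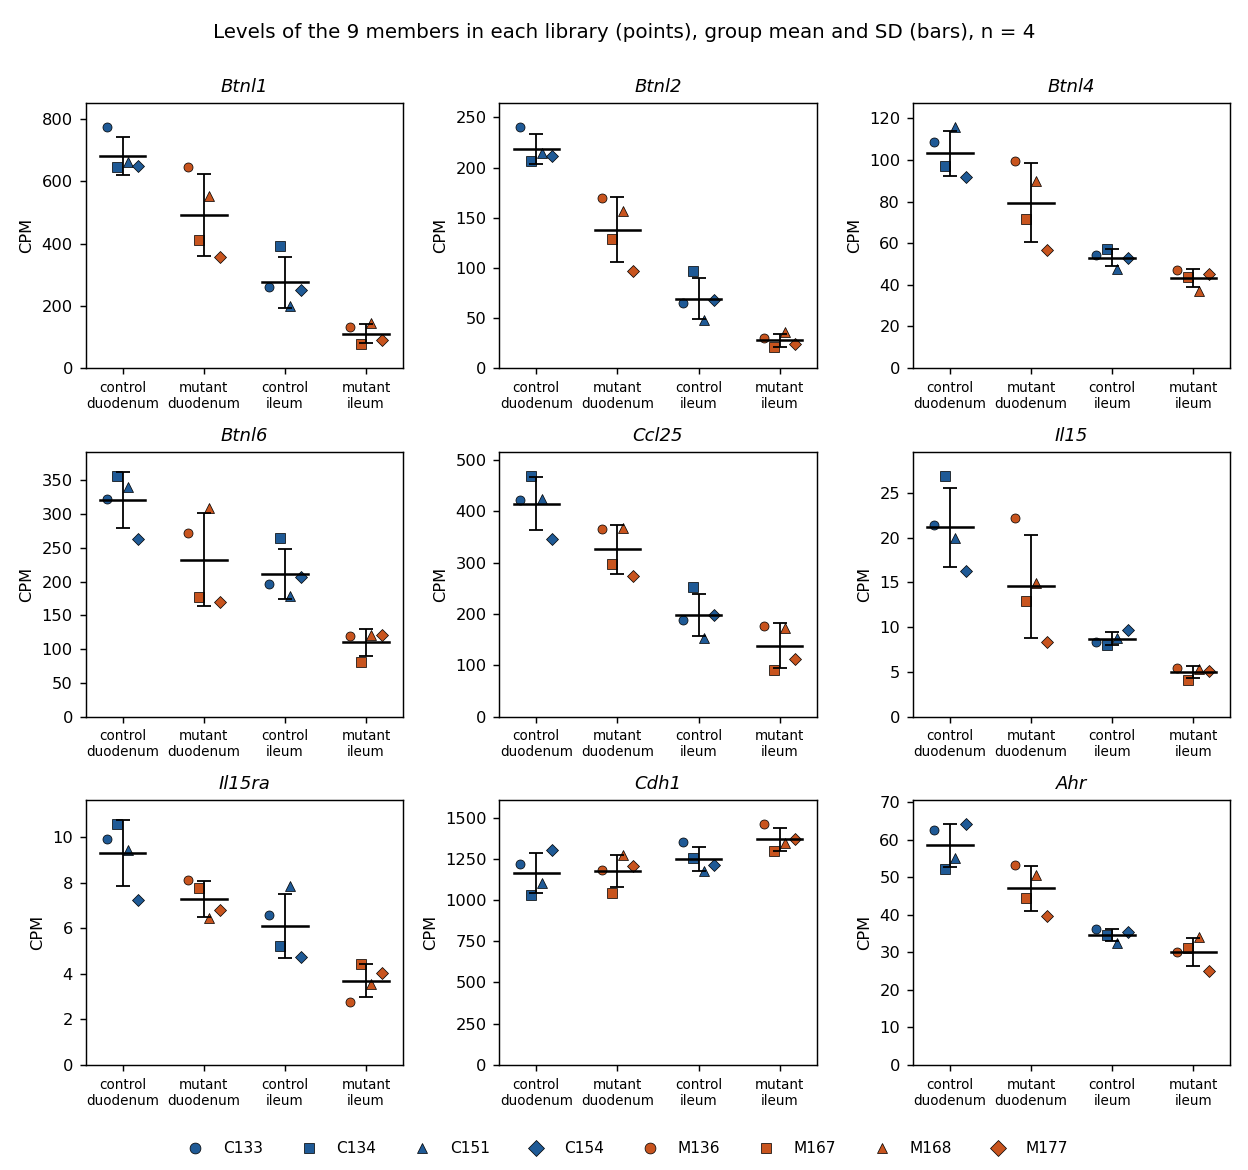
Level of each of the 9 genes in CPM (vertical axis, starting at 0) in every library, by group. Points are libraries, with 1 symbol per mouse (control mice blue, mutant mice orange), horizontal bars the mean and vertical bars the SD of 4 libraries. For Btnl1, Btnl2, Btnl4, Btnl6, Il15 and Il15ra all mutant ileum points lie below all control ileum points.

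The 4 butyrophilin-like genes lie on chromosome 17. RefSeq (GRCm38.p6) promoter windows were found for 6 of the 9 genes, and those of the 4 butyrophilin-like genes are shown because they sit in one cluster, 3 of them fell in the ileum and Btnl4 did not pass. Each line gives the 150 bases before the RefSeq start, 5′ to 3′ on the gene's strand. Btnl2 lies at chr17:34354672-34354821 on the plus strand and Btnl1 at chr17:34376982-34377131 on the plus strand, with capitals marking the HNF4 letters in Btnl2 and the first 8 of them in Btnl1. Btnl4 lies at chr17:34475938-34476087 and Btnl6 at chr17:34517353-34517502, both on the minus strand, with capitals marking the letters that are not identical when these windows are aligned.
Btnl2: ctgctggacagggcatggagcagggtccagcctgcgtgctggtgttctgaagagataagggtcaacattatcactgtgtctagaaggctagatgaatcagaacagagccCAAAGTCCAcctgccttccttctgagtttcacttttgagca
Btnl1: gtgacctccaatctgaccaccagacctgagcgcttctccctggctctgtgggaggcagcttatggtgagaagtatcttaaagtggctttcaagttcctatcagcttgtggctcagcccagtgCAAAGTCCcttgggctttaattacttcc
Btnl4: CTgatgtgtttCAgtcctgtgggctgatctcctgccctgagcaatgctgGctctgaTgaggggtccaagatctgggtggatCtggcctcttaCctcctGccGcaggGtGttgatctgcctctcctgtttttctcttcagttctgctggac
Btnl6: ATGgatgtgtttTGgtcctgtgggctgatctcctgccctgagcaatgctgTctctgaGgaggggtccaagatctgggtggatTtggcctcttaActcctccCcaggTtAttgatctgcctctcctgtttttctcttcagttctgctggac

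Btnl4 and Btnl6 share most of these letters: 138 of 150 were identical and 11 were mismatched, the rest being gaps. The HNF4 letters CAAAGTCCA, searched on both strands in the 250 bases before the start, occurred in 0.384% of 32851 RefSeq windows and, among the windows of these genes, in that of Btnl2, from 41 to 33 bases before the start. The first 8 of these letters, CAAAGTCC, a search added after seeing the sequences, occurred in 1.2% of windows, among them that of Btnl2 and that of Btnl1, where they lie from 28 to 21 bases before the start. The GATA letters AGATAA, present in 9.99% of windows, occurred in that of Btnl2. The AHR letters GCGTG were in 28.2% of all windows and in windows of Btnl2, Btnl6 and Ccl25. The CDX letters TTTATNG were in 9.81% of all windows and in one of Ccl25, and the interferon element was in 2.98% of all windows and in none of these. Apart from the pair of HNF4 searches, no matches overlapped. A match is a description of letters, and factor binding was not analysed here.

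Btnl1, one chain of the Btnl1 and Btnl6 heteromer, had the highest mean per length of the 4 butyrophilin-like genes in the duodenum of both genotypes, at 211 CPM per kilobase of exon in control duodenum. In control ileum its level was 261, 393, 200 and 250 CPM in C133, C134, C151 and C154. In mutant ileum it was 132, 79.0, 144 and 89.3 CPM in M136, M167, M168 and M177. Every mutant library lay below every control library, and C134 was the highest control. Btnl1 fell (log2 fold change -1.29, SE 0.25, adjusted p = 0.00429), and the mean went from 276 ± 82.2 to 111 ± 31.8 CPM (SD, n = 4). Without C134 and C154 the log2 fold change was -1.01 (adjusted p = 0.0197).

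In the duodenum, Btnl1 stood at 774, 645, 662 and 648 CPM in C133, C134, C151 and C154. In M136, M167, M168 and M177 it stood at 646, 411, 552 and 357 CPM. The groups overlapped by a narrow margin, with M136 just above C134 and the other 3 mutant libraries below all controls. The log2 fold change was -0.45 (SE 0.19, adjusted p = 0.147). M167 and M177, the libraries rich in pancreatic transcripts, were the lowest, and without them the log2 fold change was -0.17 (adjusted p = 0.548).

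Btnl2, a butyrophilin-like gene known as an inhibitor of T cell activation, stood at 240, 207, 214 and 212 CPM in the duodenum of C133, C134, C151 and C154. In M136, M167, M168 and M177 it stood at 170, 129, 156 and 96.5 CPM. The groups did not overlap, and Btnl2 was alone among the 9 in this. It fell (log2 fold change -0.64, SE 0.16, adjusted p = 0.037). Of all genes tested in the duodenum, 11.4% had every mutant library below every control library, and 7.38% had every one above. The call was not stable: Btnl2 did not pass when C133, C134, C151, C154, M167 or M177 was left out, with adjusted p from 0.0528 to 0.105, nor after scaling to epithelium genes (adjusted p = 0.0533). Without M167 and M177 the log2 fold change was -0.40 (adjusted p = 0.0882), and the part of the pancreatic transcripts in this result was not tested further.

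In the ileum, Btnl2 stood at 64.9, 97.0, 47.8 and 68.0 CPM in C133, C134, C151 and C154. It was 30.2, 21.4, 35.5 and 23.9 CPM in M136, M167, M168 and M177. The groups did not overlap, and the order of the libraries was nearly that of Btnl1. Btnl2 fell (log2 fold change -1.30, SE 0.23, adjusted p = 0.00255). No overlap between genotypes was seen in the ileum for 6 of the 9 genes (Btnl1, Btnl2, Btnl4, Btnl6, Il15 and Il15ra), all lower in mutants, against 15.5% of tested genes in that direction and 17% in the other.

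Btnl6, the partner chain of Btnl1, stood at 196, 265, 179 and 207 CPM in the ileum of C133, C134, C151 and C154. In M136, M167, M168 and M177 it was 120, 80.5, 120 and 121 CPM. The groups did not overlap, and 3 of the mutant libraries were nearly equal with M167 below them. Btnl6 fell (log2 fold change -0.92, SE 0.16, adjusted p = 0.00129). In the duodenum the levels were 323, 357, 341 and 263 CPM in the controls and 273, 178, 309 and 170 CPM in the mutants, in the same order of mice. These groups overlapped, and the log2 fold change was -0.44 (SE 0.19, adjusted p = 0.16).

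Btnl4, whose promoter window aligned closely with that of Btnl6, had the smallest ileal difference of the 4. It stood at 54.5, 57.1, 47.5 and 53.0 CPM in C133, C134, C151 and C154, and at 47.0, 43.7, 36.8 and 45.2 CPM in M136, M167, M168 and M177. The groups did not overlap, but C151 and M136 were within 1 CPM of each other. The log2 fold change was -0.27 (SE 0.10, adjusted p = 0.0552), on the edge of the threshold: 4 of 17 alternatives passed, among them DESeq2 (adjusted p = 0.0435). In the duodenum the levels were 109, 96.9, 116 and 91.6 CPM in controls and 99.6, 71.8, 89.8 and 56.9 CPM in mutants, with overlap (log2 fold change -0.35, SE 0.16, adjusted p = 0.181).

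Ratios within a library show how the 4 genes kept or lost step. Btnl2 over Btnl1 lay between 0.23 and 0.326 in all 16 libraries. In controls it was 0.31 to 0.326 in the duodenum and 0.239 to 0.271 in the ileum, with no overlap. In mutants it was 0.263 to 0.314 in the duodenum and 0.23 to 0.271 in the ileum. Btnl4 over Btnl1 was 0.145 to 0.237 in control ileum and 0.255 to 0.553 in mutant ileum, with no overlap, while in the duodenum it was 0.14 to 0.175 in controls and 0.154 to 0.175 in mutants. Btnl6 over Btnl1 was 0.673 to 0.893 in control ileum and 0.832 to 1.36 in mutant ileum, with overlap. These ratios were not tested. Reads can be shared between copies: 14.0% of the 50-base stretches of Btnl4 and 6.58% of those of Btnl6 also occur in one another or in the pseudogenes Btnl5-ps and Btnl7-ps, whereas Btnl1 and Btnl2 had none in another gene.

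Of 8 other butyrophilin genes, 5 were tested in the ileum, where 2 fell and none rose, and 4 in the duodenum, where none passed. Over all tested genes, 14.6% fell in the ileum and 8.55% passed in the duodenum. Both ileal butyrophilin calls held without each pair of mice. Btnl5-ps, a pseudogene in the same cluster, stood at 181 to 244 CPM in control duodenum, above Btnl4 there. In the ileum it averaged 135 ± 13.3 CPM in control ileum and 75.4 ± 9.77 CPM in mutant ileum (log2 fold change -0.82, adjusted p = 0.000369). Btnl7-ps, a second pseudogene, averaged 38.1 ± 6.47 and 14.2 ± 3.55 CPM (log2 fold change -1.41, adjusted p = 0.000437). Both share stretches with Btnl4 and Btnl6, so their levels are uncertain.

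Ccl25, the chemokine that recruits CCR9-bearing lymphocytes to the small intestine, did not pass in either tissue. In the ileum it stood at 188, 252, 153 and 199 CPM in C133, C134, C151 and C154, and at 176, 90.0, 174 and 112 CPM in M136, M167, M168 and M177. The groups overlapped because M136 and M168 lay above C151. The log2 fold change was -0.50 (SE 0.23, adjusted p = 0.127). It passed in 2 of 17 alternatives, with libraries scaled to epithelium genes (-0.68, adjusted p = 0.0205) and with all 16 libraries in 1 fit (-0.53, adjusted p = 0.0465). The scaling to epithelium genes moved the median over all genes in the ileum by -0.15. Of the 14 genes it used, 4 rose and 2 fell in the ileum.

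In the duodenum, Ccl25 stood at 421, 470, 423 and 346 CPM in C133, C134, C151 and C154, and at 365, 297, 367 and 275 CPM in M136, M167, M168 and M177. C154 fell within the mutant range, and the other controls lay above it. The log2 fold change was -0.32 (SE 0.14, adjusted p = 0.158). In the gene models 2.06% of the stretches of Ccl25 also occur in the neighbouring gene Elavl1.

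Of 8 other gut chemokine genes tested in each tissue, 3 fell in each and none rose. The shares of all tested genes that fell were 14.6% in the ileum and 5.11% in the duodenum. Cxcl9, an interferon-induced ligand of CXCR3, fell in both, from 16.7 ± 3.31 to 4.38 ± 2.34 CPM in the duodenum (log2 fold change -1.91, adjusted p = 0.0172) and from 6.49 ± 2.12 to 0.961 ± 0.557 CPM in the ileum (-2.74, adjusted p = 0.000616). Cxcl10, its relative, fell in the duodenum (-2.12, adjusted p = 0.00875), and in the ileum it was -2.44 (adjusted p = 0.051). Ccl28, an epithelial chemokine of mucosal plasma cells, fell in the ileum (-0.62, adjusted p = 0.0387), and in the duodenum its value was 0.77 (adjusted p = 0.176). Ccl21a, a chemokine of lymphatic vessels and lymphoid tissue, fell in the duodenum (-1.14, adjusted p = 0.0343) and in the ileum (-1.47, adjusted p = 0.0489). Without C134 and C154, none passed in the duodenum and 2 in the ileum, where Ccl21a was -0.37 (adjusted p = 0.322). Without M167 and M177, Cxcl9 and Cxcl10 passed in the duodenum and Cxcl9 alone in the ileum.

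Il15, the survival cytokine of intraepithelial lymphocytes, fell in the ileum and did not pass in the duodenum. In the ileum it stood at 8.36, 8.01, 8.76 and 9.70 CPM in C133, C134, C151 and C154. In M136, M167, M168 and M177 it was 5.48, 4.06, 5.31 and 5.10 CPM. The groups were well apart, with a log2 fold change of -0.78 (SE 0.13, adjusted p = 0.0014). In the duodenum the controls stood at 21.4, 26.9, 20 and 16.3 CPM and the mutants at 22.2, 12.9, 14.96 and 8.29 CPM, in the same order of mice. M136 lay among the controls and the other mutant libraries below them all. The log2 fold change there was -0.51 (SE 0.27, adjusted p = 0.246), and it passed when M136 was left out (-0.79, adjusted p = 0.0466).

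Il15ra, which presents IL-15 at the cell surface, was the least abundant of the 9, with 911 to 1969 counts over the 4 libraries of a group. In the ileum it stood at 6.57, 5.23, 7.84 and 4.72 CPM in C133, C134, C151 and C154, and at 2.75, 4.42, 3.55 and 4.06 CPM in M136, M167, M168 and M177. The groups did not overlap, with C154 and M167 closest. Il15ra fell (log2 fold change -0.69, SE 0.20, adjusted p = 0.0226). It did not pass when C133, C151, M136 or M168 was left out, with adjusted p from 0.0554 to 0.069. In the duodenum it was 9.91, 10.6, 9.44 and 7.23 CPM in controls and 8.13, 7.74, 6.46 and 6.82 CPM in mutants, with overlap (log2 fold change -0.32, SE 0.15, adjusted p = 0.181).

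Myeloid cells also make IL-15 and its receptor chain. Of 12 macrophage and dendritic cell markers, 11 fell in the ileum and 9 in the duodenum, against 14.6% and 5.11% of all tested genes. Their summed level was 197 to 267 CPM in control ileum and 114 to 175 CPM in mutant ileum, and 377 to 446 and 249 to 296 CPM in the duodenum, with no marker at 0 in a whole group. The duodenal count was 5 without C133, 4 without C134 and C154 and 5 without M167 and M177, and the ileal count was 8 without the first pair and 8 without the second. In bulk tissue, fewer cells of a type and less RNA per cell cannot be told apart, and the part of these cells in the Il15 and Il15ra results was not tested. A list of 11 genes joined those of IL-15 signalling with Irf1 and the cytokine genes Il7 and Il18. Of these 11, 4 fell and 1 rose in the ileum, where 14.6% of all tested genes fell and 19.0% rose. None passed in the duodenum, where 8.55% of all tested genes did. Stat5b, a transcription factor downstream of the receptor, fell in the ileum from 26.4 ± 0.995 to 17.7 ± 0.853 CPM (log2 fold change -0.55, adjusted p = 0.000795). Irf1, an interferon-induced factor known to raise Il15 transcription, fell there from 99.1 ± 21.5 to 61.5 ± 8.84 CPM (-0.66, adjusted p = 0.00673), and in the duodenum it was -0.64 (adjusted p = 0.0629). Il2rg and Il2rb, the receptor chains on the lymphocyte, were the others that fell, and Il18, an epithelial cytokine named after its value was seen, rose in the ileum (1.30, adjusted p = 0.0325). The number that fell was 2 without C134 and C154 and 3 without M167 and M177. Il2rb and Il2rg passed in neither case, and without M167 and M177 Irf1 did not pass (adjusted p = 0.0634), so that Stat5b alone of the 4 remained.

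Cdh1, the epithelial cadherin, was the most abundant of the 9 per length, at 254 CPM per kilobase in control duodenum. In the ileum it stood at 1351, 1253, 1179 and 1215 CPM in C133, C134, C151 and C154, and at 1461, 1298, 1343 and 1370 CPM in M136, M167, M168 and M177. The groups overlapped, with C133 above M167 and M168. The log2 fold change was 0.16 (SE 0.09, adjusted p = 0.214), and it was -0.00193 when libraries were scaled to epithelium genes. In the duodenum the levels were 1216, 1030, 1102 and 1304 CPM in controls and 1183, 1040, 1275 and 1206 CPM in mutants, intermixed (log2 fold change 0.04, SE 0.15, adjusted p = 0.88).

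Among 10 other genes of cell junctions, 2 rose in the ileum, where 19.0% of all tested genes rose, and none passed in the duodenum. Pkp2, a plakophilin of desmosomes, rose from 61.7 ± 3.21 to 99.5 ± 11.8 CPM (log2 fold change 0.71, adjusted p = 0.000299). Dsg2, a desmosomal cadherin, rose from 749 ± 59.4 to 988 ± 96.2 CPM (0.42, adjusted p = 0.00995). The count that rose was 5 without M167, and it was 1 without C134 and C154 (Dsg2 0.39, adjusted p = 0.0863) and 1 with libraries scaled to epithelium genes.

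Ahr stood at 36.1, 34.7, 32.4 and 35.4 CPM in the ileum of C133, C134, C151 and C154, and at 30.1, 31.3, 34.0 and 25.1 CPM in M136, M167, M168 and M177. The groups overlapped, with M168 within the control range (log2 fold change -0.18, SE 0.10, adjusted p = 0.21). In the duodenum it was 62.6, 52.1, 55.0 and 64.1 CPM in controls and 53.3, 44.6, 50.5 and 39.6 CPM in mutants. M136 alone reached the control range (log2 fold change -0.29, SE 0.12, adjusted p = 0.132). The cell types that the Ahr RNA came from were not separated in these bulk libraries.

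The genes of the same pathway did not move one way. In the ileum, 19.0% of all tested genes rose and 14.6% fell. Of 4 partners of the receptor, 2 rose in the ileum, Ptges3 (0.72, adjusted p = 0.000149) and Hsp90ab1 (0.47, adjusted p = 0.0211), both of the chaperone complex. Of 4 target genes tested in the ileum, Nqo1, a quinone reductase, rose from 17.6 ± 2.9 to 41.3 ± 11 CPM (log2 fold change 1.25, adjusted p = 0.0012). Ahrr, the repressor of the receptor, fell from 5.3 ± 1.2 to 2.07 ± 0.673 CPM (-1.34, adjusted p = 0.00217), and Tiparp, another feedback repressor, fell by 0.33 on the log2 scale (adjusted p = 0.0196). In the duodenum, none of 5 tested target genes passed. Without C134 and C154 the ileal calls of Hsp90ab1 (adjusted p = 0.175) and Tiparp (adjusted p = 0.212) were lost.

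**Figure D2:**
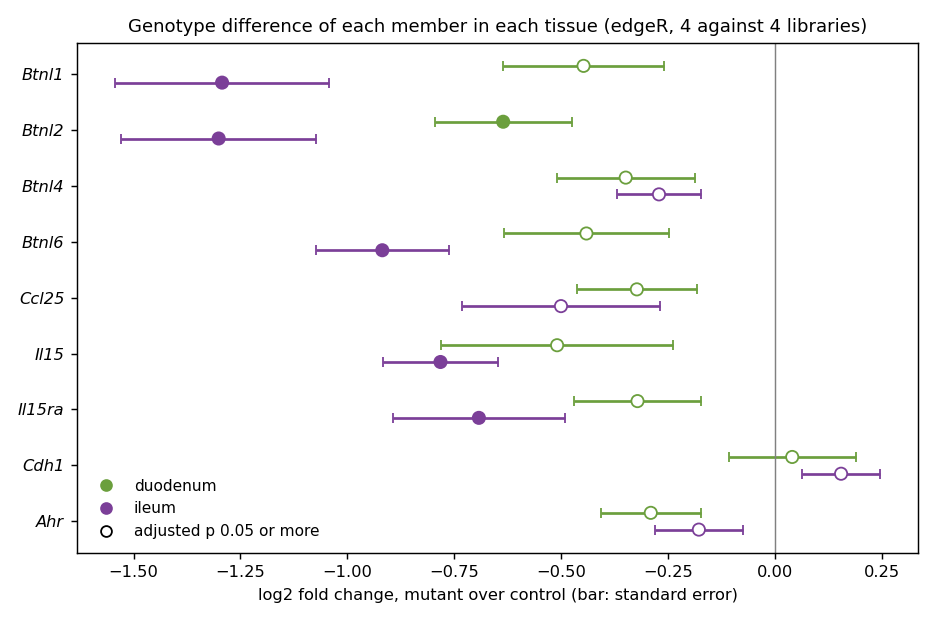
Log2 fold change of mutant over control for each of the 9 genes (horizontal axis), with the standard error as bars, in duodenum (green) and ileum (purple). Filled points passed an adjusted p of 0.05: Btnl2 in the duodenum and Btnl1, Btnl2, Btnl6, Il15 and Il15ra in the ileum.

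The difference between the tissues was itself tested over all 16 libraries. In fits without the mouse as a block, none of the 9 genes passed with edgeR, with DESeq2 or with limma-voom. Of 19289 tested genes, 8.99% passed with edgeR, 4.13% with a lower ileal value and 4.86% with a higher one. At an unadjusted p under 0.05 in the edgeR fit there were 2 of the 9, Btnl1 and Btnl2, against 5864 of the 19289 genes tested. For Btnl1 the ileal log2 fold change was lower than the duodenal one by 0.86 (SE 0.32, adjusted p = 0.0887), and for Btnl2 by 0.68 (SE 0.29, adjusted p = 0.128). With the mouse as a block, Btnl1 passed (-0.83, adjusted p = 0.0163) and Btnl2 did not (-0.63, adjusted p = 0.0563), in a fit where 20.9% of all tested genes passed. With libraries scaled to epithelium genes, 3 passed: Btnl1 (adjusted p = 0.0281), Btnl2 (adjusted p = 0.0421) and Btnl6 (adjusted p = 0.0486), all lower. In that fit 5.39% of tested genes passed, 874 lower and 165 higher. That scaling moved the median over all genes by -0.26 on the log2 scale, so it shifts every such difference downward.

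**Figure D3:**
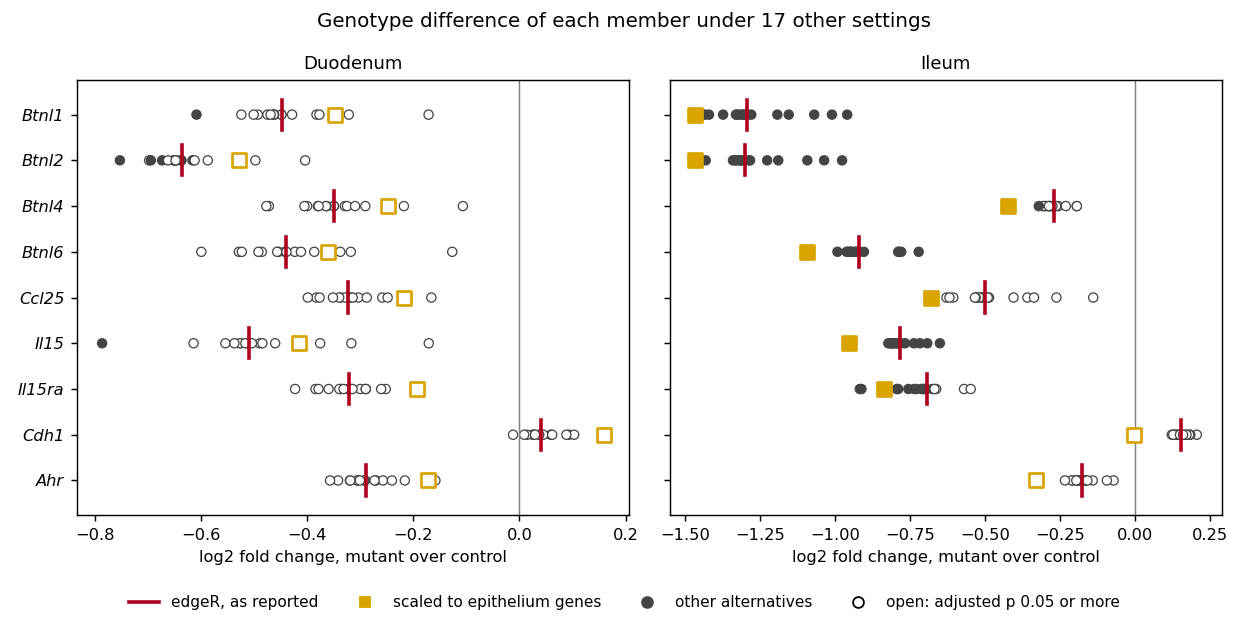
Log2 fold change of mutant over control for each gene under 17 other settings (horizontal axis), in duodenum and ileum. Red lines are the reported values, squares the scaling to epithelium genes, circles the other settings, and open symbols did not pass an adjusted p of 0.05. Btnl1, Btnl2, Btnl6 and Il15 stay filled in all 17 in the ileum, and Cdh1 crosses 0 in each tissue.

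The members also differed along the gut. In control mice, 8 of the 9 were lower in the ileum than in the duodenum, against 30.3% of 18217 tested genes (28% were higher and 58.3% passed in all), and Cdh1 did not pass. Btnl2 had the widest regional difference, a log2 fold change of ileum over duodenum of -1.64 (SE 0.18, adjusted p = 4.97e-05), and Il15 was next to Btnl1 at -1.27 and -1.29. Ccl25 (-1.05), Btnl4 (-0.95), Ahr (-0.74), Il15ra (-0.59) and Btnl6 (-0.59) followed, and Cdh1 was 0.12 (adjusted p = 0.385). In 6 of the 9 every ileum library lay below every duodenum library, against 28.9% of genes (24.7% in the other direction), while Btnl6, Il15ra and Cdh1 overlapped. The Il15ra call was lost without C133 (adjusted p = 0.0669), without C134 (adjusted p = 0.104) and without C134 and C154 together (adjusted p = 0.0564).

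In mutant mice the same 8 were lower in the ileum, against 18.2% of 17852 tested genes (12.9% were higher and 31.1% passed in all). Btnl2 came to a log2 fold change of -2.31 (SE 0.21, adjusted p = 2.26e-05) and Btnl1 to -2.15 (SE 0.24, adjusted p = 1e-04), and the other 6 lay between -1.55 for Il15 and -0.64 for Ahr. All 8 had every ileum library below every duodenum library, against 18.3% of genes, and Cdh1 had every ileum library above (0.22, adjusted p = 0.267), against 13.9%. Both tissues came from the same mice, and the mouse as a block left these 8 calls in place in each genotype.

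By length, the order of mean levels was the same in control and mutant duodenum. In control duodenum it ran from Cdh1 (254 CPM per kilobase) through Btnl1 (211), Btnl6 (183), Btnl2 (84.3), Ccl25 (55.7) and Btnl4 (43.3) to Ahr (9.49), Il15 (9.36) and Il15ra (2.09). The ranges over libraries overlapped there between Cdh1 and Btnl1, Btnl1 and Btnl6, Ccl25 and Btnl4, and Ahr and Il15. In mutant ileum Cdh1 (299) led Btnl6 (63.0) and Btnl1 (34.4), and Ccl25 (18.5), Btnl4 (18.1), Btnl2 (10.7), Ahr (4.89), Il15 (2.21) and Il15ra (0.831) followed, with overlap between Ccl25 and Btnl4 alone. The mean of Btnl6 was above that of Btnl1 in both ileum groups and below it in both duodenum groups, and the ranges of this pair were apart in mutant ileum but not in the other groups. The exon model of Ccl25 is 7445 bases long and touches Elavl1, so its level per length is uncertain.

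The lymphocyte side of each pair was read in the same libraries, and of the genes named Ccr9, Tcrg-V7, Xcl1 and, in the ileum, Itgb7 were chosen after their values were seen. Of 20 genes of intraepithelial lymphocytes, all tested in the ileum, 17 fell and none rose (median log2 fold change -2.02). Of all genes tested in the ileum, 14.6% fell. In the duodenum, where 5.11% of all tested genes fell, 5 of 19 from this list fell (Itgb7, Itgae, Cd3d, Cd8b1 and Xcl1, median of the list -0.76). Their summed level was 85.0 to 123 CPM in control ileum and 22.1 to 40.4 CPM in mutant ileum, and 185 to 335 and 89.1 to 215 CPM in the duodenum, with none at 0 in a whole group. The duodenal count depends on single libraries: it was 1 without C134, C151 or M167, 2 without C133, C154 or M177, and 9 without M168. It was 0 without C134 and C154 together and 1 without M167 and M177 together, where Itgb7 alone passed, and the ileal count was 14 and 15.

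Itgae, the integrin chain that binds E-cadherin, stood at 17.2, 18.8, 15.6 and 14.2 CPM in the ileum of C133, C134, C151 and C154 and at 3.54, 3.72, 5.80 and 4.20 CPM in M136, M167, M168 and M177. The groups were far apart, and Itgae fell (log2 fold change -1.91, SE 0.17, adjusted p = 4.32e-05). It also fell in the duodenum, from 37.1 ± 8.12 to 19.8 ± 5.30 CPM (-0.88, adjusted p = 0.0297). The duodenal call of Itgae was lost without C134 and C154 (adjusted p = 0.144) and without M167 and M177 (adjusted p = 0.135). Itgb7, its partner, fell from 11.8 ± 2.69 to 2.87 ± 0.935 CPM in the ileum (-2.02, adjusted p = 0.000451) and from 13.1 ± 0.881 to 6.72 ± 1.25 CPM in the duodenum (-0.94, adjusted p = 0.00709). In those same libraries the ligand gene Cdh1 did not pass the test.

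Ccr9, the receptor of CCL25, fell in the ileum from 9.36 ± 1.73 to 3.47 ± 1.03 CPM (log2 fold change -1.41, adjusted p = 0.000715). In the duodenum it went from 9.63 ± 1.80 to 7.49 ± 2.29 CPM (-0.33, adjusted p = 0.329). Il2rb, the IL-15 receptor beta chain, fell in the ileum from 7.45 ± 4.09 to 2.28 ± 0.715 CPM (-1.69, adjusted p = 0.0209), where C133 at 2.498 CPM lay within the mutant range. Tcrg-V7, the variable segment of the V gamma 7 chain, had 106 counts over the control ileum libraries and 19 over the mutant ones (-2.53, adjusted p = 0.0117), and 355 against 200 in the duodenum (-0.61, adjusted p = 0.185). Without C134 and C154 the ileal call of Tcrg-V7 was lost (-2.23, adjusted p = 0.0811). Cd8a, a coreceptor chain of these lymphocytes, fell in the ileum from 6.36 ± 1.20 to 1.02 ± 0.485 CPM (-2.63, adjusted p = 0.000143).

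**Figure D4:**
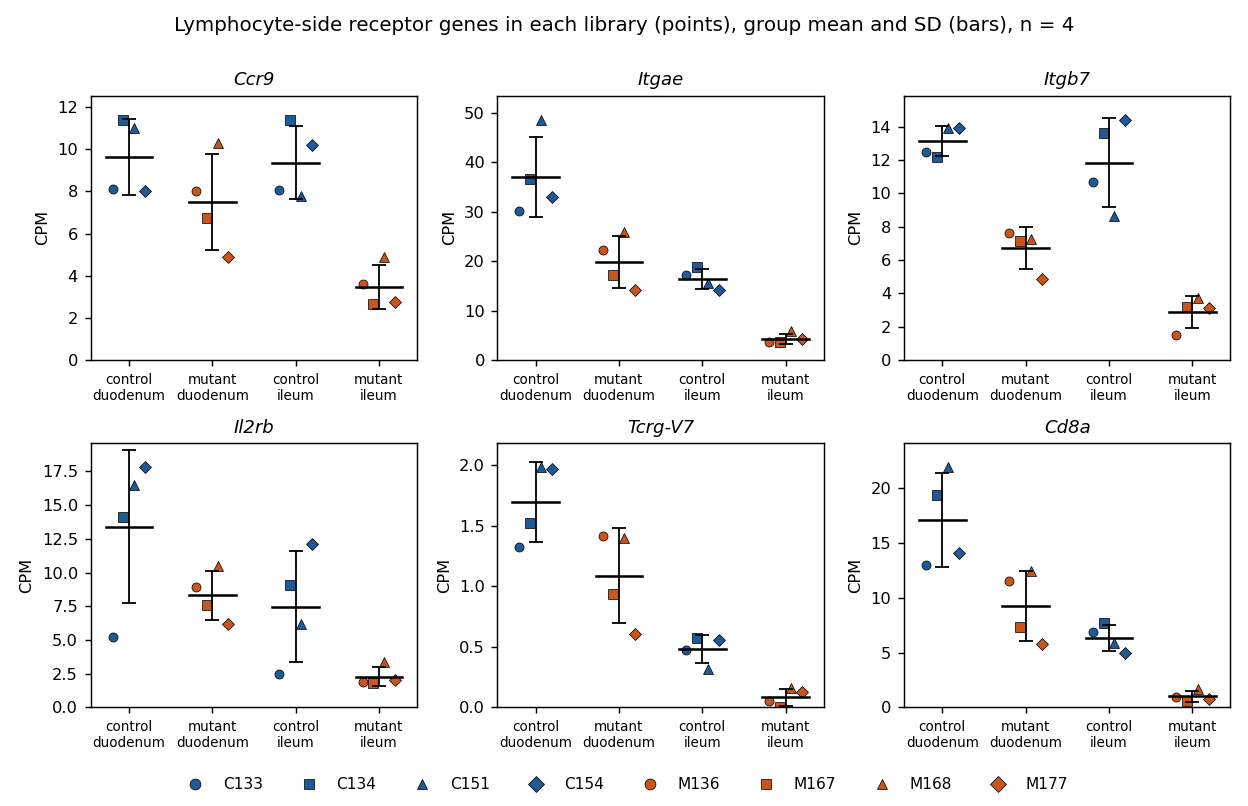
Levels in CPM (vertical axis, starting at 0) of 6 lymphocyte genes in every library by group, with group mean and SD of 4 libraries as bars and 1 symbol per mouse. All mutant ileum points lie below all control ileum points for Ccr9, Itgae, Itgb7, Tcrg-V7 and Cd8a, while 1 control ileum library of Il2rb lies within the mutant range.

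Other epithelial ligands and regulators of these lymphocytes were read in the same way. Of 12 tested in the ileum, 9 fell and none rose (median log2 fold change -0.66), and 3 of 11 fell in the duodenum. Among all tested genes, 14.6% fell in the ileum and 5.11% in the duodenum. H2-T3, which encodes the thymus leukaemia antigen bound by CD8 alpha homodimers, fell from 76.4 ± 16.4 to 29.2 ± 6.67 CPM in the ileum (-1.37, adjusted p = 0.000691) and from 229 ± 33.2 to 140 ± 29.4 CPM in the duodenum (-0.68, adjusted p = 0.0277). Tnfrsf14, the receptor HVEM, fell in the ileum from 18.1 ± 1.21 to 9.75 ± 0.71 CPM (-0.87, adjusted p = 0.000146) and in the duodenum (-0.46, adjusted p = 0.0399). Nlrp6, an inflammasome sensor of the epithelium, was the third to fall in the duodenum, from 349 ± 15.5 to 238 ± 21.3 CPM (-0.52, adjusted p = 0.0207). H2-T22, a ligand of a subset of gamma delta T cells, fell in the ileum (-0.63, adjusted p = 0.00237). The duodenal count was 0 without C133 or C151 and 1 without C134, C154, M167 or M177. It was 0 without C134 and C154 together and 0 without M167 and M177 together, and the ileal count was 6 of 12 in both cases.

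Of 10 transcription factors of the enterocyte, 2 rose and 1 fell in the ileum, and none passed in the duodenum. For these and the epithelium markers below, the shares over all genes tested in the ileum were 19.0% that rose and 14.6% that fell. Hnf4g, a nuclear receptor of the HNF4 family, fell in the ileum from 378 ± 63.2 to 265 ± 47.1 CPM (log2 fold change -0.49, adjusted p = 0.0249). Cdx1, a homeobox factor, rose from 113 ± 17.9 to 146 ± 10.9 CPM (0.40, adjusted p = 0.0172), and Klf5, a factor of crypt cells, rose from 449 ± 32.0 to 558 ± 75.6 CPM (0.34, adjusted p = 0.0339). Of the 14 epithelium markers, 4 rose in the ileum, the keratins Krt8, Krt18 (1.16, adjusted p = 5.95e-05) and Krt19 and the splicing factor Esrp1, and without M167 and M177 the number that rose was 7. The 2 that fell, Cdhr2 (-0.99, adjusted p = 0.000282) and Cdhr5 (-0.68, adjusted p = 0.00263), encode protocadherins of the brush border, the microvilli of mature enterocytes. In the duodenum Krt18 rose (0.70, adjusted p = 0.0151). Without C134 and C154 none of the 10 transcription factors passed in the ileum, and without M167 and M177 Hnf4g did not (adjusted p = 0.142). Krt18 in the duodenum passed in neither case (adjusted p = 0.108 and 0.0503). Krt19, Krt8 and Cdhr5 were named after their values were seen, and the part of these shifts within the epithelium in the results above was not tested.

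Likeness of pattern was measured by Pearson's r of log2 CPM over the 16 libraries, among 14170 genes tested in both tissues with a mean of at least 1 CPM. These libraries share tissue, genotype and mouse, so r is high for many genes. For Btnl1 the 3 most alike genes were Btnl2 (r = 0.994), Cyp2c68 (0.991) and Pdk2 (0.989), and for Btnl2 they were Btnl1, Pdk2 (0.994) and Naprt (0.991). Btnl6 was most like Btnl5-ps (0.984), Btnl7-ps (0.98) and Optn (0.975), of which the pseudogenes share stretches with it, and Btnl4 was most like Ctso (0.984), Zbtb43 (0.975) and Pptc7 (0.973).

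Ccl25 was most like Smim22, Mogat2 and Otc (each 0.985), Il15 most like Sytl3 (0.982), Kcnk5 (0.976) and Prkg2 (0.971), and Il15ra most like Apbb3 (0.95), Myom3 (0.948) and Dock3 (0.941). Ahr was most like 9130019O22Rik and Dcun1d4 (each 0.976) and Adh4 (0.972), and Cdh1 most like Ralgapb (0.911), Cemip2 (0.904) and Nup98 (0.895). Removing the group means leaves the spread between libraries within a group. Btnl1 and Btnl2 then kept an r of 0.97 and Btnl1 and Ccl25 one of 0.887. Il15 and Il15ra had 0.858 over the libraries and 0.162 with the group means removed. Btnl1 and Il15ra had 0.812 and -0.407. In the duodenum M167 and M177, rich in pancreatic transcripts, were the lowest mutant libraries for Btnl1, Btnl2 and Ccl25. The part of these libraries in the values of r was not tested.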

How the data were processed

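The authors deposited 1 table of raw, whole-number counts for 16 libraries and 55359 Ensembl identifiers, and it was used unchanged. The submitters' processing notes name HTSeq 0.6.1p1, STAR 2.5.3a, Bowtie2 2.2.8 and cutadapt 1.10, and the build mm39. Annotation release and strand setting were not given in the sources used here. Names and exon lengths came from GENCODE M21, which named 52083 identifiers, and the 3276 unnamed ones held 1.02% of counts. Promoter windows came from RefSeq (GRCm38.p6). No library pair was identical.

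Each tissue was fitted with edgeR 4.0.16 (R 4.3.3, limma 3.58.1): filterByExpr, scaling by the trimmed mean of M values, robust quasi-likelihood F test, Benjamini-Hochberg adjustment over all tested genes, threshold 0.05. The standard error is the absolute log2 fold change over the square root of F. Tissue contrasts used the 8 libraries of a genotype, and the tissue difference all 16. CPM use the scaled library sizes, and log2 CPM a prior count of 2. The test was checked on simulated data, whose libraries held no effect of the mouse. That check therefore does not cover the sharing of mice between tissues. Labels share mouse numbers between tissues: residuals of each duodenum library correlated best with its own mouse's ileum in 8 of 8 mice (r 0.385 to 0.687, best other -0.136 to 0.4), so mouse was used as a block in an alternative. Labels name no batch.

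Named by rule were the 9 members, Neurog3, up to 4 genes per list with the smallest p in the tissue discussed, and the 3 genes most alike. Members and the 16 lists were chosen with earlier results of these data known. Alternatives were DESeq2 size factors, DESeq2 1.42.0, limma-voom, no low count filter, 1 CPM in 4 libraries, scaling to epithelium genes, all libraries in 1 fit, the block and each mouse left out. Fits without C134 and C154 or without M167 and M177 were added after seeing the data. A gene of the pathway lists is not reported here.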

Additional observations from a re-analysis of the deposited data

Results flagged for a closer look

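In each group of 4 libraries the highest or lowest value was set against the others for the 9 members, 36 groups in all, of which chance marks about 1 in 20. Btnl1 in control duodenum had 1 library far above the rest, C133 at 774 CPM, with a gap of 0.869 of the group's range. Btnl6 in mutant ileum had 1 library far below the rest, M167 at 80.5 CPM, with a gap of 0.96 of the range.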

How the results depend on the processing

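Of 675 member values under the alternatives, 638 kept direction and side of the threshold, 16 lost a call, 12 gained one and 9 reversed. In the ileum, Btnl1, Btnl2, Btnl6 and Il15 passed in all 17 alternatives, and the number of the 9 that passed stayed within 4 to 7. In the duodenum it was 1, against 0 with scaling to epithelium genes, 0 without C134 and C154, 0 without M167 and M177, and 0 to 3 with 1 mouse left out. The 3, Btnl1, Btnl2 and Il15, passed without M136. For the difference between tissues the number was 0, against 3 with scaling to epithelium genes and 1 with the replicate block (Btnl1, log2 value -0.83); the block changed no other call. The reversed values were all small. With scaling to epithelium genes, Cdh1 in the ileum was -0.00193, and the tissue difference was -0.18 for Btnl4, -0.16 for Cdh1 and -0.16 for Ahr. The tissue difference of Btnl4 was also -0.042 without C151, -0.085 without M177 and -0.22 without M167 and M177, and that of Ccl25 was 0.028 without C134 and C154. With 1 mouse left out, the tissue difference of Btnl4 ranged from -0.085 to 0.195 and Cdh1 in the duodenum from -0.012 to 0.103. The causes were not tested. Scaling to epithelium genes moved the median over all genes by 0.12 in the duodenum and -0.15 in the ileum, and took it from -0.06 to -0.32 for the tissue difference and from -0.01 to -0.21 between tissues in mutants. Over all genes, the number that passed in the duodenum was 1506, against 2972 with DESeq2, 760 with scaling to epithelium genes, 2491 with all libraries in 1 fit, 476 to 2139 with 1 mouse left out, 200 without C134 and C154 and 445 without M167 and M177. In the ileum it was 6146, against 4067 without C134 and C154. For the tissue difference it was 1734, against 3199 with DESeq2, 1039 with scaling to epithelium genes, 4027 with the replicate block, 184 to 2009 with 1 mouse left out and 22 without C134 and C154. Scaling to epithelium genes changed the split of higher and lower genes from 3474 and 2672 to 1921 and 3272 in the ileum, from 938 and 796 to 165 and 874 for the tissue difference, and from 2301 and 3246 to 1093 and 4030 between tissues in mutants. With 4 mice a group, p-values within a tissue cover the spread between these mice alone. Fits across tissues without the block took both libraries of a mouse as independent.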
